A study of Homo sapiens with 4 samples.

Results

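The G2/M and mitosis genes described here are 42 genes whose symbols were given as a list, from cyclins and mitotic kinases to kinetochore, spindle and cytokinesis genes. All 42 were found among the 22637 genes of the deposited count table. They were picked by symbol and not by a measured value, though with earlier results of these data known. RNA-seq was performed on LNCaP, a castration-sensitive human prostatic adenocarcinoma line, on C4-2B, a castration-resistant line derived from it, and on an olaparib-resistant line made from each. LN-OlapR came from LNCaP and 2B-OlapR from C4-2B, by about a year of growth in rising doses of olaparib, an inhibitor of the PARP enzymes of DNA repair, and both were then kept in the drug. The RNA came from cells labelled untreated, which had been plated without the drug, and the study's methods and the deposited description give different plating times. Each line was sequenced once, and each resistant line is a single derivation, so a difference between libraries could come from the line, the culture or the library, and these cannot be told apart. The comparison of 2B-OlapR with C4-2B is called the 2B pair and that of LN-OlapR with LNCaP the LN pair.

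Cells enter mitosis when cyclin B accumulates, binds the kinase CDK1 and is switched on by the CDC25 phosphatases. The kinases of the Aurora and Polo families then build the spindle, kinetochores attach chromosomes to it, and the anaphase-promoting complex with its partner CDC20 ends the process by marking cyclin B and securin for destruction. The mRNAs of these genes are low in G1 and peak in G2 and M, which is why their sum is commonly used as a measure of proliferation. In bulk RNA, fewer cells in G2 and M and less of each mRNA per cell cannot be told apart.

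Many genes of this program are known to be held down outside G2 and M by the DREAM complex and switched on by B-MYB and FOXM1, through a promoter element named CHR and through CCAAT boxes bound by NF-Y. RefSeq promoter sequences (build GRCh38.p14, 250 bases before to 50 after the start) were matched by symbol for 35 of the 42 genes, leaving out AURKA, TTK, UBE2C, BIRC5, TPX2, RACGAP1 and FOXM1. Printed here, as the genes with CHR letters within the 150 bases before the start whose ratios differed most between the pairs, are the 150 bases before the start of CENPA (chr2:26785906-26786055), KIF11 (chr10:92592980-92593129), NCAPG (chr4:17810829-17810978) and CDC20 (chr1:43358831-43358980), all on the plus strand. Capitals mark the CHR letters (TTTGAA or TTCGAA, or TTCAAA where the first is read on the other strand) and the CCAAT letters (ATTGG on the other strand).
CENPA: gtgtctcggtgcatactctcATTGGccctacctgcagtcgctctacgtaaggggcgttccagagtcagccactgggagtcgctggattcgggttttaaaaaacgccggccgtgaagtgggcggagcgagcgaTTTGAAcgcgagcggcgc
KIF11: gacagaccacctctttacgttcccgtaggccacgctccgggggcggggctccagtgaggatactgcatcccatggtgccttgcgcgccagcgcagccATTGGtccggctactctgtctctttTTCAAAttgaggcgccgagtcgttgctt
NCAPG: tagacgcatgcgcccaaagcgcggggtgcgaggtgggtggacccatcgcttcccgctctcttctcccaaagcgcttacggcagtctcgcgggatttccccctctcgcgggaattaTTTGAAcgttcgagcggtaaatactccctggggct
CDC20: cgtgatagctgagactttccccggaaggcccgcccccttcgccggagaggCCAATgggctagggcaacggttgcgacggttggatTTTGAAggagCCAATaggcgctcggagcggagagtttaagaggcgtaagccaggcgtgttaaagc
The CHR letters began 18 bases before the start in CENPA, 28 in KIF11, 35 in NCAPG and 65 in CDC20. CCAAT letters stood upstream of the CHR letters in CENPA and KIF11, on both sides of them in CDC20, and were not found in the stretch printed for NCAPG.

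Over the 300-base windows, CHR letters on either strand were present in 25 of the 35 promoters (71.4%), against 16.6% of all 27305 promoters and 10.6% of those of genes measured in both pairs. CCAAT letters were present in 26 (74.3%, against 35.7% and 37.4%), and 15 promoters held at least 2 of them (42.9%, against 11.3% of all). Both motifs together occurred in 20 of the 35 (57.1%, against 6.58% of all). Matches of the CHR and CCAAT letters overlapped each other in 1 of the 35. Such a match is a description of the letters and not of a bound site.

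Library totals ranged from 19950537 to 26394267 counts. All 10 prostate luminal markers were measured, with a summed level between 4116 and 7615 normalized CPM (counts scaled by TMM factors and to a common library size), although KLK3, the gene of prostate-specific antigen, was at 53.1 in LNCaP against 1870 to 2685 in the other 3 libraries. Of the markers of other cell types, those measured summed to at most 20.9 normalized CPM for fibroblasts (3 of 6 genes), 5.14 for immune cells (CD68 alone), 12.2 for endothelium (VWF alone), 0.557 for basal epithelium (KRT14 alone) and 3.13 for neuroendocrine cells (SYP alone), while the rest, among them PTPRC, PECAM1, TP63 and CHGA, were not analysed here.

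All 42 genes were well expressed in every library, from 11.1 normalized CPM for CENPA in LN-OlapR to 409 for MKI67 in 2B-OlapR, and all passed the minimum of a mean of 1 normalized CPM in each comparison. Together they made up 0.442% of all counts in LNCaP (95% Wilson interval 0.440 to 0.445%). In LN-OlapR the share was 0.403% (0.400 to 0.405%). C4-2B had 0.437% (0.434 to 0.440%), and its resistant line 0.478% (0.476 to 0.481%). The program thus took a larger share of the RNA in 2B-OlapR than in its parent and a smaller share in LN-OlapR than in its parent. Intervals here and below cover counting error only, and no difference has a replicate check, so no p-value is given.

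**Figure D1:**
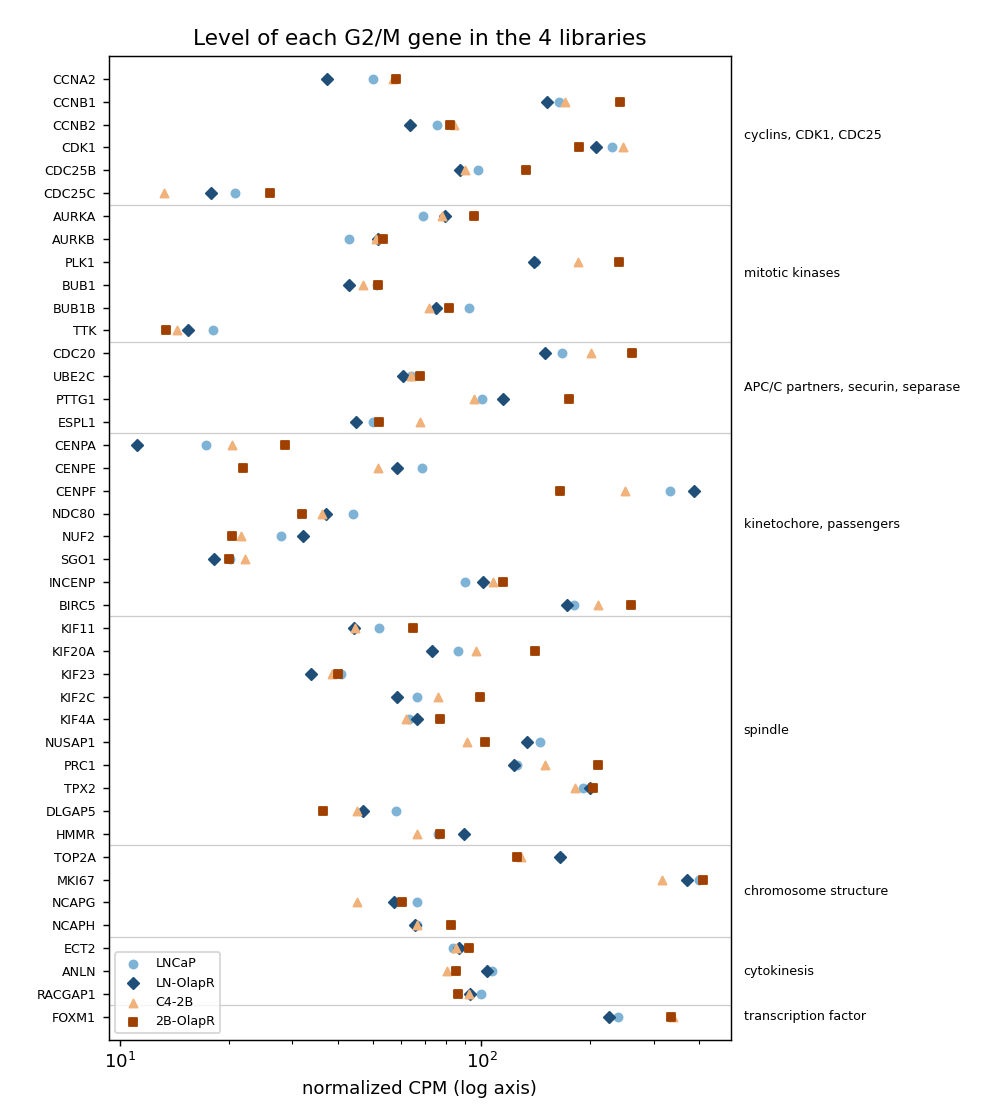
Level of each of the 42 genes in normalized CPM (horizontal log axis) in the 4 libraries, LNCaP (circles), LN-OlapR (diamonds), C4-2B (triangles) and 2B-OlapR (squares), grouped by role. Levels run from 11.1 (CENPA in LN-OlapR) to 409 (MKI67 in 2B-OlapR), and CENPE and CENPF are the kinetochore genes whose 2B-OlapR value lies farthest below the other 3.

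Between the 2B libraries, 29 of the 42 genes were higher in the resistant line (69.0%), where 50.0% of all 15527 genes measured were. The median log2 ratio of 2B-OlapR over C4-2B was 0.15 (quartiles -0.04 to 0.38), against -0.0003 for all genes. Of the 42, 13 were at least 25% higher (31.0%, against 22.1% of all genes) and 4 at least 20% lower (9.52%, against 25.2%), the latter being CDK1, ESPL1, CENPE and CENPF. CENPE was the 1 gene at least 2-fold lower, as were 5.65% of all genes. The counting interval of the ratio lay above 0 for 24 genes (57.1%, against 31.5% of all genes) and below 0 for 7 (16.7%, against 30.8%).

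The LN libraries differed the other way. Only 11 of the 42 genes were higher in LN-OlapR (26.2%), where 49.6% of all 15373 genes were, and 7 when libraries were scaled by total counts. The median log2 ratio of LN-OlapR over LNCaP was -0.12 (quartiles -0.23 to 0.004), against -0.004 for all genes. Differences in this pair were small, with no gene at least 25% higher (0.00%, against 20.9% of all genes) and CCNA2 and CENPA at least 20% lower (4.76%, against 21.7%). The interval lay above 0 for 8 genes (19.0%, against 31.7% of all genes) and below 0 for 25 (59.5%, against 31.3%). The SD of the ratios over the 42 genes was 0.19 in this pair and 0.39 in the 2B pair, smaller than the 0.86 and 0.81 over all genes tested, which were not matched for level.

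**Figure D2:**
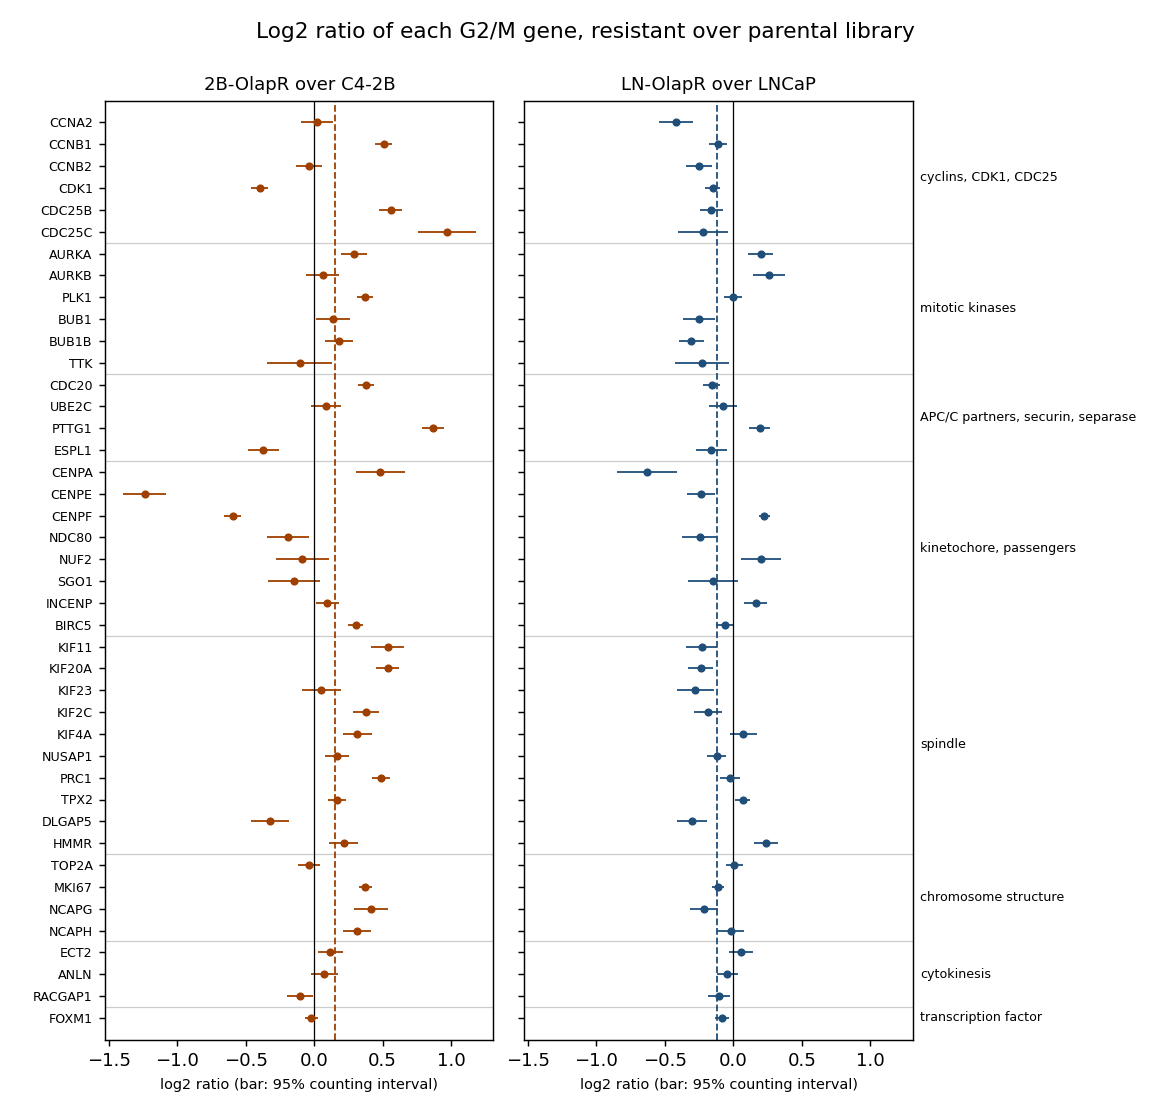
Log2 ratio of each of the 42 genes in the 2B pair (left) and the LN pair (right), with bars for the 95% counting interval, a solid line at 0 and a dashed line at the median of the 42. The median lies at 0.15 between the 2B libraries and -0.12 between the LN libraries, and CENPE at -1.24 is the lowest point.

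Among the cyclins and the CDC25 phosphatases, the genes that start mitosis, cyclin B1 stood out. CCNB1 was at 164 and 151 normalized CPM in the LNCaP and LN-OlapR libraries, and 170.0 and 242 in those of C4-2B and 2B-OlapR. The level in 2B-OlapR was thus above those of the other 3 lines, which lay close together, and the log2 ratio was 0.51 (0.45 to 0.57) between the 2B libraries and -0.11 (-0.18 to -0.05) between the LN libraries. CDC25B, whose phosphatase activates the cyclin complexes at the onset of mitosis, was at 97.6, 87.4, 89.9 and 133 normalized CPM in the same order, again highest in 2B-OlapR (log2 ratios 0.56 and -0.16). Where 4 levels are given without names this order is kept, and where a pair of ratios is given without names the 2B pair comes first. CDC25C, which removes the inhibitory phosphates from CDK1, was at 20.9, 17.9, 13.2 and 26.0, with the largest ratio of the 42 genes in the 2B pair, 0.97 (0.76 to 1.18), a 1.96-fold difference. C4-2B was the lowest of the 4 lines for this gene, and LN-OlapR was below LNCaP (-0.22, -0.41 to -0.04). Reads of CDC25C are uncertain in part, since its exons share 293 bases with FAM53C on the opposite strand and the strand setting of the counting is not given in the sources used here. Exons of 18 of the 42 genes overlap another annotated gene, on the same strand for BUB1B, CENPA, NUSAP1 and PRC1.

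CDK1, the kinase that cyclin B activates, did not follow its cyclin. It was at 230.3 and 208 normalized CPM in the LNCaP and LN-OlapR libraries, and 246 and 187 in those of C4-2B and 2B-OlapR, lowest in the line where CCNB1 was highest. Its log2 ratio was -0.40 (-0.46 to -0.34) between the 2B libraries and -0.15 (-0.20 to -0.10) between the LN libraries. The ratio of CCNB1 to CDK1 counts was 0.711 in LNCaP, 0.730 in LN-OlapR and 0.691 in C4-2B but 1.30 in 2B-OlapR. This ratio within a library does not depend on the scaling, and its change was 0.91 (0.82 to 0.99) on the log2 scale between the 2B libraries and 0.04 (-0.05 to 0.12) between the LN libraries. CCNA2, the cyclin of S phase and G2, was at 50.0, 37.4, 57.0 and 57.9 normalized CPM, with the second lowest ratio of the LN pair (-0.42, -0.54 to -0.30) and none detectable at this depth in the 2B pair (0.02, -0.09 to 0.14). CCNB2, the other mitotic B cyclin, was at 75.5, 63.5, 83.8 and 81.7, also lower in LN-OlapR (-0.25) with an interval in the 2B pair that held 0 (-0.13 to 0.06). All 6 genes of this group were lower in LN-OlapR (against 50.4% of all genes), and 4 of the 6 were higher in 2B-OlapR (against 50.0%).

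Of the mitotic kinases, PLK1, the Polo kinase of mitotic entry and spindle assembly, was at 140.3 and 140.1 normalized CPM in the LN libraries, 185 in C4-2B and 239 in 2B-OlapR. Its log2 ratio was 0.37 (0.31 to 0.43) between the 2B libraries and -0.0022 (-0.07 to 0.07) between the LN libraries. Both Aurora kinases were higher in LN-OlapR. AURKA, the centrosomal Aurora kinase, was at 68.9, 79.2, 77.8 and 95.3 in LNCaP, LN-OlapR, C4-2B and 2B-OlapR, so that both resistant lines lay above their parents (0.20 in the LN pair and 0.29 in the 2B pair). AURKB, the Aurora kinase of the chromosomal passenger complex, was at 43.0, 51.6, 51.1 and 53.4. Its ratio of 0.26 (0.15 to 0.38) was the highest of the 42 in the LN pair, whereas in the 2B pair the interval held 0 (-0.06 to 0.19).

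The kinases of the spindle assembly checkpoint, which delays anaphase until all kinetochores are attached, were lower in LN-OlapR. BUB1B was at 92.4 and 74.8 normalized CPM in the LNCaP and LN-OlapR libraries, and 71.5 and 81.2 in those of C4-2B and 2B-OlapR. It was 1 of 14 genes with an interval below 0 in the LN pair (ratio -0.31) and above 0 in the 2B pair (0.18), and its exons share 457 bases with the readthrough gene BUB1B-PAK6 on the same strand. BUB1, at 51.4, 43.1, 46.9 and 51.6, was another (0.14 and -0.25). TTK, the checkpoint kinase also named MPS1, was among the least expressed genes at 18.0, 15.4, 14.4 and 13.4, with ratios of -0.10 (-0.34 to 0.13) and -0.23 (-0.43 to -0.03).

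Among the partners of the anaphase-promoting complex, CDC20, its mitotic activator, was at 167 and 149.7 normalized CPM in the LNCaP and LN-OlapR libraries, and 201 and 261 in those of C4-2B and 2B-OlapR. Both lines of the C4-2B background were above both LNCaP lines, and the log2 ratios were 0.38 (0.32 to 0.44) between the 2B libraries and -0.16 (-0.22 to -0.09) between the LN libraries. UBE2C, the ubiquitin-conjugating enzyme of the complex, was nearly even at 64.0, 60.7, 63.9 and 67.8, with intervals that held 0 in both pairs.

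The genes of securin and separase lay farthest apart in 2B-OlapR. PTTG1, which encodes securin, the inhibitor that keeps separase inactive until anaphase, was at 100.1 and 114 normalized CPM in the LNCaP and LN-OlapR libraries, and 95.5 and 174 in those of C4-2B and 2B-OlapR. Its ratio was the second highest in the 2B pair (0.87, 0.79 to 0.95, 1.82-fold) and was above 0 in the LN pair too (0.19, 0.12 to 0.27). ESPL1, which encodes separase, the protease that cuts cohesin, was at 50.2, 45.0, 67.5 and 52.2, below the parent in both resistant lines (-0.37 between the 2B libraries and -0.16 between the LN libraries). PTTG1 counts were 1.99 and 2.54 times those of ESPL1 in LNCaP and LN-OlapR, and 1.41 and 3.34 times in C4-2B and 2B-OlapR. The change of this ratio was 1.24 (1.10 to 1.38) between the 2B libraries and 0.35 (0.21 to 0.49) between the LN libraries, the same direction in both. PTTG1 has near-identical copies elsewhere in the genome, and how its reads were divided among them is not known.

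Apart from FOXM1 on its own, the kinetochore genes were the only role group with a median below 0 in the 2B pair (-0.12, with 3 of 8 genes higher, against -0.11 and 3 of 8 in the LN pair). CENPE, the kinesin motor that carries chromosomes to the metaphase plate, was at 68.5 and 58.3 normalized CPM in the LNCaP and LN-OlapR libraries, and 51.7 and 21.9 in those of C4-2B and 2B-OlapR. The 2B-OlapR level was 2.36-fold below that of C4-2B (log2 ratio -1.24, -1.39 to -1.08), and the difference in the LN pair was smaller (-0.23, -0.33 to -0.13). CENPF, a large kinetochore protein with a farnesyl group, was at 332, 388, 249 and 165. It was 1.51-fold lower in 2B-OlapR (-0.59, -0.66 to -0.53) and higher in LN-OlapR (0.23, 0.18 to 0.27), and it was the 1 gene of the 42 with this opposition of intervals, which 8.59% of all genes showed. CENPE to CENPF counts stood at 0.207 in both parental lines, 0.150 in LN-OlapR and 0.133 in 2B-OlapR, lower in the resistant line of both pairs (-0.64 and -0.46).

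CENPA, the histone H3 variant that marks the centromere, whose promoter is printed above, ran opposite to CENPF. It was at 17.3 and 11.1 normalized CPM in the LNCaP and LN-OlapR libraries, and 20.4 and 28.6 in those of C4-2B and 2B-OlapR. LN-OlapR was the lowest and 2B-OlapR the highest of the 4, with ratios of -0.63 (-0.85 to -0.41), the lowest of the LN pair, and 0.48 (0.30 to 0.66) in the 2B pair. Its exons share 138 bases with SLC35F6 on the same strand. NDC80 and NUF2 encode partners in the complex that binds microtubule ends. NDC80, at 44.1, 37.2, 36.3 and 31.9, was lower in both resistant lines (-0.24 in the LN pair, -0.19 in the 2B pair), while NUF2, at 27.9, 32.0, 21.6 and 20.4, was higher in LN-OlapR (0.20, 0.05 to 0.35) and had an interval that held 0 in the 2B pair (-0.28 to 0.11). SGO1, the shugoshin that protects centromeric cohesin, was at 20.2, 18.2, 22.2 and 20.1, with intervals that held 0 in both pairs. The passenger genes INCENP (90.1, 101, 107 and 115) and BIRC5, which encodes survivin (180.4, 173, 210.4 and 259.5), both had positive ratios in the 2B pair (0.10 and 0.30), and of these INCENP was higher in LN-OlapR as well (0.16).

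Among the 10 spindle genes, 9 were higher in 2B-OlapR (median 0.27) and 3 were higher in LN-OlapR (median -0.15). The shares over all genes were 50.0% and 49.6%. KIF11, the kinesin that pushes the spindle poles apart, was at 52.2 and 44.5 normalized CPM in the LNCaP and LN-OlapR libraries, and 44.6 and 64.7 in those of C4-2B and 2B-OlapR, with ratios of 0.54 (0.42 to 0.66) between the 2B libraries and -0.23 (-0.35 to -0.12) between the LN libraries. KIF20A, the kinesin of the central spindle, was at 85.9, 72.9, 96.7 and 140.2, with the same 0.54 (0.45 to 0.62) and -0.24 (-0.33 to -0.15). Both motors were thus highest in 2B-OlapR and were higher in it and lower in LN-OlapR than in the parental library. KIF2C, a kinesin that takes microtubules apart at centromeres (66.4, 58.5, 75.7 and 98.7), and NUSAP1, a microtubule-bundling protein (145, 134, 90.9 and 102), had intervals above 0 in the 2B pair and below 0 in the LN pair as well. NUSAP1 shares 1787 exon bases with another annotated gene of the same strand.

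PRC1, which bundles the central spindle, was at 125 and 123 normalized CPM in the LNCaP and LN-OlapR libraries, and 149.8 and 210.1 in those of C4-2B and 2B-OlapR, higher in 2B-OlapR (0.49, 0.42 to 0.55), with a LN interval that held 0 (-0.10 to 0.05) and 3181 exon bases shared with another annotated gene of the same strand. KIF4A, the chromosome-bound kinesin that works with PRC1, was at 63.0, 66.4, 61.7 and 76.8, a level that could include reads of its retrocopy KIF4B. TPX2, which activates Aurora A on the spindle, was at 190.3, 199, 181 and 203, with a LN ratio of 0.07 that turned to -0.02 when libraries were scaled by total counts. The spindle genes were not alike in direction. DLGAP5, a spindle-stabilizing protein, was at 58.0, 47.0, 45.4 and 36.4, lower in the resistant line of both pairs (-0.32 and -0.30). HMMR, the spindle and hyaluronan-binding protein, was at 75.6, 89.3, 66.1 and 76.8, higher in both (0.22 and 0.24). KIF23, a motor of the centralspindlin complex, was at 41.0, 33.8, 38.7 and 40.1, lower in LN-OlapR (-0.28) with an interval that held 0 in the 2B pair (-0.09 to 0.19).

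The common proliferation markers MKI67 and TOP2A gave different pictures. MKI67, which encodes the Ki-67 antigen that coats mitotic chromosomes, was at 399 and 369 normalized CPM in the LNCaP and LN-OlapR libraries, and 316 and 409 in those of C4-2B and 2B-OlapR, with ratios of 0.37 (0.33 to 0.42) between the 2B libraries and -0.11 (-0.15 to -0.07) between the LN libraries. TOP2A, the topoisomerase that untangles sister chromatids, was at 165 in both LN libraries, 129 in C4-2B and 125 in 2B-OlapR, and its intervals held 0 in both pairs. NCAPG, a subunit of condensin I, was at 66.5, 57.4, 45.2 and 60.3 (0.42 between the 2B libraries and -0.21 between the LN libraries), with 1631 exon bases shared with LCORL on the opposite strand. NCAPH, another condensin I subunit, was at 66.4, 65.7, 66.2 and 82.3, 0.31 higher in 2B-OlapR on the log2 scale, with a LN interval that held 0 (-0.11 to 0.08).

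Genes of cytokinesis differed little. ECT2, which activates the GTPase RhoA at the division plane, lay between 83.3 and 92.5 normalized CPM in the 4 libraries, and RACGAP1, the centralspindlin partner of KIF23, between 86.0 and 99.7. ANLN, which encodes the contractile ring scaffold anillin, was at 107, 104, 80.4 and 84.7, so it followed the background of the line and had intervals that held 0 in both pairs. FOXM1, the transcription factor of the program, was at 238 and 225 in the LNCaP and LN-OlapR libraries, and 339 and 334 in those of C4-2B and 2B-OlapR. Its interval in the 2B pair held 0 (-0.02, -0.07 to 0.03), and it was slightly lower in LN-OlapR (-0.08, -0.13 to -0.03).

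Per kilobase of the longest GENCODE transcript, the scale on which levels of different genes can be compared, the most abundant of the 42 in C4-2B was CDK1, at 126 normalized CPM per kb. CDC20 followed at 113, then FOXM1 at 97.3, PTTG1 at 89.2 and CCNB1 at 78.4. In 2B-OlapR the order had changed, with PTTG1 first at 163, then CDC20 at 147 and CCNB1 at 111, and CDK1 stood at 95.8. The least abundant in C4-2B were TTK at 3.86 and CDC25C at 6.20, with CENPE between them, and in 2B-OlapR CENPE was below TTK (2.54 against 3.59), while CDC25C stood at 12.1.

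The pairs share no library and can be set side by side. Of the 42 genes, 21 were higher in the 2B pair and lower in the LN pair (50.0%), where 21.2% of all 14602 genes measured in both pairs were, and 3 were the reverse (7.14%, against 21.2%). The remaining genes were higher in both pairs (8, 19.0%, against 28.5%) or lower in both (10, 23.8%, against 29.1%). For 14 genes the interval lay above 0 in the 2B pair and below 0 in the LN pair (33.3%, against 7.66% of all genes). These were CCNB1, CDC25B, CDC25C, BUB1, BUB1B, CDC20, CENPA, BIRC5, KIF11, KIF20A, KIF2C, NUSAP1, MKI67 and NCAPG.

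The median difference between the pairs, the 2B log2 ratio minus the LN log2 ratio, was 0.23 (quartiles 0.001 to 0.51), against -0.005 for all genes. CDC25C (1.19, 0.91 to 1.47) and CENPA (1.11, 0.83 to 1.40) differed most in one direction, and CENPE (-1.003, -1.19 to -0.82) and CENPF (-0.82, -0.90 to -0.74) in the other. NUF2 (-0.29), CDK1 (-0.25) and ESPL1 (-0.21) came after them. The rank correlation of the ratios between the pairs was 0.02 across the 42 genes, and 0.20 across all 14602. These are correlations across genes, which are not independent replicates.

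**Figure D3:**
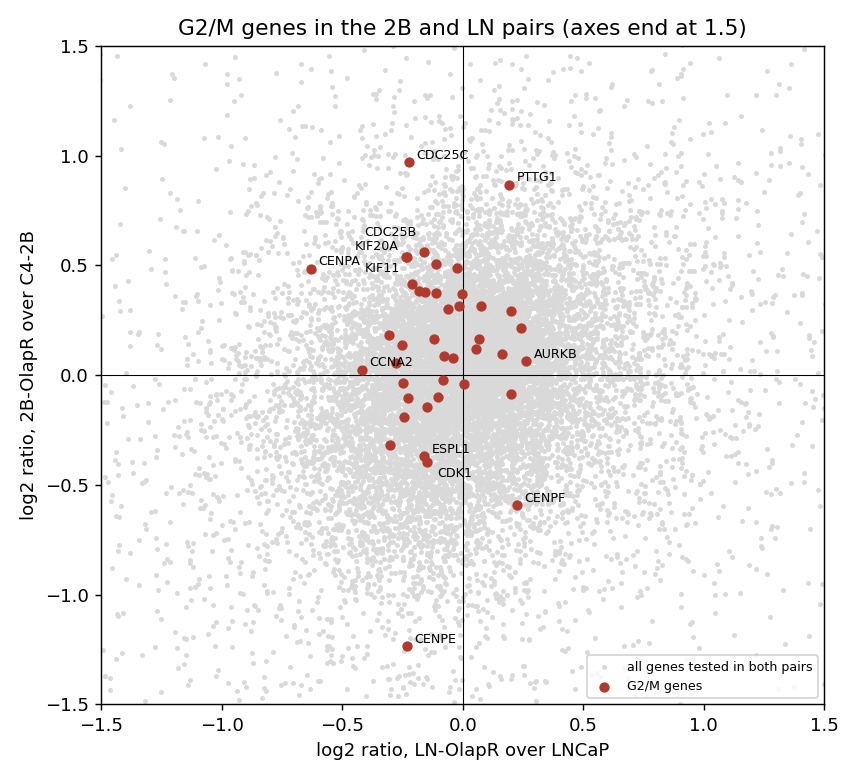
Log2 ratio of each gene in the LN pair (horizontal) and the 2B pair (vertical), with the 42 G2/M genes as red points and all genes measured in both pairs as grey points, of which those beyond 1.5 on either axis lie outside the plot. Of the red points 21 lie at the upper left, higher in the 2B pair and lower in the LN pair, and CENPE and CENPF lie lowest.

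Ratios between genes whose proteins work together do not depend on how libraries are scaled. Of 13 such pairs, chosen after the levels had been seen, the interval of the change excluded 0 for 8 between the 2B libraries. Between the LN libraries it excluded 0 for 8 as well. The ratio was at least 25% higher or at least 20% lower for 5 and 3 of them. No share over other gene pairs was computed. For single genes such intervals were common, above 0 for 31.5% and below 0 for 30.8% of all genes between the 2B libraries. The shares between the LN libraries were 31.7% and 31.3%. The balance of the passenger genes BIRC5 to INCENP changed by 0.21 between the 2B libraries and -0.23 between the LN libraries, and that of CCNA2 to CDK1 by 0.42 and -0.27. NDC80 to NUF2, equal partners of 1 complex, changed by -0.45 (-0.64 to -0.25) in the LN pair, with an interval that held 0 in the 2B pair (-0.35 to 0.14). BUB1 to BUB1B and AURKB to INCENP had intervals that held 0 in both pairs. AURKA to TPX2, a kinase and its activator, shifted alike, by 0.13 in each pair.

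**Figure D4:**
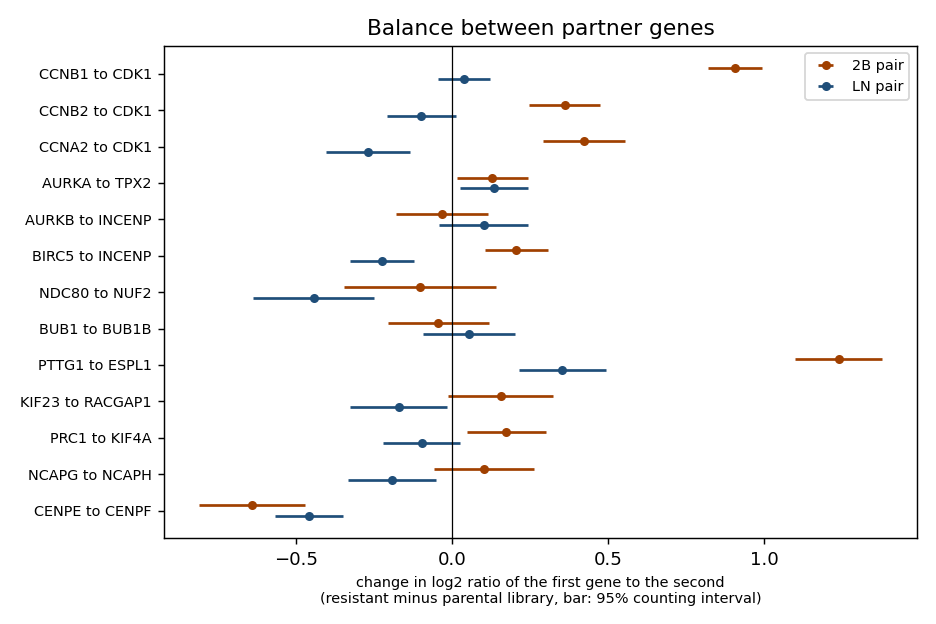
Change in the log2 ratio of the first gene to the second (horizontal axis), resistant minus parental library, in the 2B pair (brown) and the LN pair (blue), with 95% counting intervals. PTTG1 to ESPL1 (1.24) and CCNB1 to CDK1 (0.91) lie farthest to the right in the 2B pair, and CENPE to CENPF lies below 0 in both pairs.

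The background of the lines entered the levels as well. Compared with LNCaP, C4-2B had 18 of the 42 genes higher (42.9%, against 48.6% of 15580 genes), 3 at least 25% higher (7.14%, against 27.3%) and 12 at least 20% lower (28.6%, against 28.2%), with a median log2 ratio of -0.05. The 3 were PLK1 (0.40), ESPL1 (0.43) and FOXM1 (0.51, 0.46 to 0.56). The lowest were NUSAP1 (-0.68), CDC25C (-0.65) and NCAPG (-0.56), each of which had a positive ratio in the 2B pair, a comparison that uses the same C4-2B library.

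Between the resistant lines, 2B-OlapR had the higher level for 30 of the 42 (71.4%, against 49.4% of 15539 genes), 16 by at least 25% (38.1%, against 29.6%) and 6 at least 20% lower (14.3%, against 31.4%). CENPA was the 1 gene at least 2-fold higher (8.93% of all genes), with a log2 ratio of 1.36 (1.15 to 1.57). CENPE (-1.41, -1.56 to -1.26) and CENPF (-1.23, -1.29 to -1.17) were at least 2-fold lower (9.45% of all genes). The median was 0.20, with quartiles of -0.14 and 0.58. These ratios use the same libraries as the pairs and add no separate measurement.

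Other genes of the cell cycle were described by 7 lists that hold none of the 42. The 37 other kinetochore and checkpoint genes had 25 higher in the 2B pair (67.6%, against 50.0% of all genes, median 0.18) and 13 in the LN pair (35.1%, against 49.6%, median -0.08). Likewise 17 of 26 other spindle and centrosome genes were higher in the 2B pair (65.4%, median 0.15) and 9 in the LN pair (34.6%, median -0.06). These lists thus had the same signs as the 42. In the 2B pair HJURP, the chaperone that loads CENPA, had the highest ratio of the kinetochore list (0.85). In the spindle list TACC3, a spindle protein, had the highest (0.64) and SASS6, a centriole protein, the lowest (-0.57). CENPN, a centromere protein that binds CENPA nucleosomes, was at 99.7 and 382 normalized CPM in the LNCaP and LN-OlapR libraries, and 513 and 341 in those of C4-2B and 2B-OlapR. Its ratio of 1.94 (1.88 to 2.00) in the LN pair was the highest of its list, and that of MAD1L1, a checkpoint gene, the lowest (-0.63). KIF18A, a kinesin that limits chromosome swing, was the lowest of the spindle list in the LN pair (-0.72) and CKAP2 the highest (0.60).

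Subunits of the anaphase-promoting complex and its enzymes were not arranged in this way, with 13 of 17 higher in the 2B pair (76.5%, median 0.10) and 11 in the LN pair (64.7%, median 0.08, which turned to -0.006 when scaled by total counts). UBE2S, which extends ubiquitin chains on its targets, was the highest in the 2B pair (0.74) and ANAPC5 the lowest (-0.36). ANAPC15 was higher by 0.57 in both pairs, and ANAPC16 was the lowest in the LN pair (-0.23). For 16 condensin and cohesin genes the medians were -0.006 and 0.02, values so near 0 that both changed sign with the scaling, with NCAPH2 (0.60) and STAG2 (-0.36) at the ends in the 2B pair and STAG1 (0.53) and PDS5B (-0.32) in the LN pair.

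The regulators of the program showed little net difference. The 14 DREAM and B-MYB complex genes had medians of 0.04 between the 2B libraries and 0.03 between the LN libraries, both of which were below 0 when libraries were scaled by total counts. MYBL2, which encodes B-MYB, was at 172 and 183 normalized CPM in the LNCaP and LN-OlapR libraries, and 276 and 284 in those of C4-2B and 2B-OlapR, higher in both lines of the C4-2B background like FOXM1, with ratios of 0.04 and 0.09 within the pairs. LIN54, the subunit that reads the CHR element, was the highest of the list in the 2B pair (0.77, 0.59 to 0.95). NFYB, a subunit of the factor that binds CCAAT boxes, was the lowest in both pairs (-1.16 between the 2B libraries and -0.39 between the LN libraries). E2F4, the E2F of the repressing complex, was the highest in the LN pair (0.25).

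CDKN1A, which encodes the CDK inhibitor p21, differed more than any of the 42 genes. It was at 76.1 and 142 normalized CPM in the LNCaP and LN-OlapR libraries, and 77.8 and 18.6 in those of C4-2B and 2B-OlapR. The parental lines lay close together, LN-OlapR was 1.87-fold above its parent (log2 ratio 0.90, 0.82 to 0.98) and 2B-OlapR 4.17-fold below (-2.06, -2.22 to -1.90). The median of the 42 genes and CDKN1A thus lay on opposite sides in each pair, and a part of CDKN1A in their difference was not tested. In the list of 15 G2 checkpoint genes and CDK inhibitors, 14 were measured and 5 were higher in each pair (35.7%, against 50.0% and 49.6% of all genes). The medians were -0.09 and -0.26. CDC14B, a phosphatase of the G2 checkpoint, was the lowest in the 2B pair (-2.26, from 7.97 to 1.64 normalized CPM) and was lower in LN-OlapR too (-1.002). CDKN1C, which encodes p57, was lower in both (-1.95 and -1.53) on 12 to 97 counts. PKMYT1, the kinase that inhibits CDK1, was the highest in the 2B pair (0.50).

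Genes of the G1/S transition had a higher median in the 2B pair than the G2/M genes, a difference that was not tested. Of 28 measured, 22 were higher (78.6%, against 50.0% of all genes, median 0.33), 15 of them by at least 25% (against 22.1%). E2F1 was the highest (0.81) and TYMS the lowest (-0.38). In the LN pair 14 of the 28 were higher (50.0%, against 49.6% of all genes, median -0.01), with MCM7 at 0.41 and CDC45 at -0.77 as the ends. Higher levels in the 2B pair were thus seen in the G1/S list as well, where the LN pair had no net direction.

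**Figure D5:**
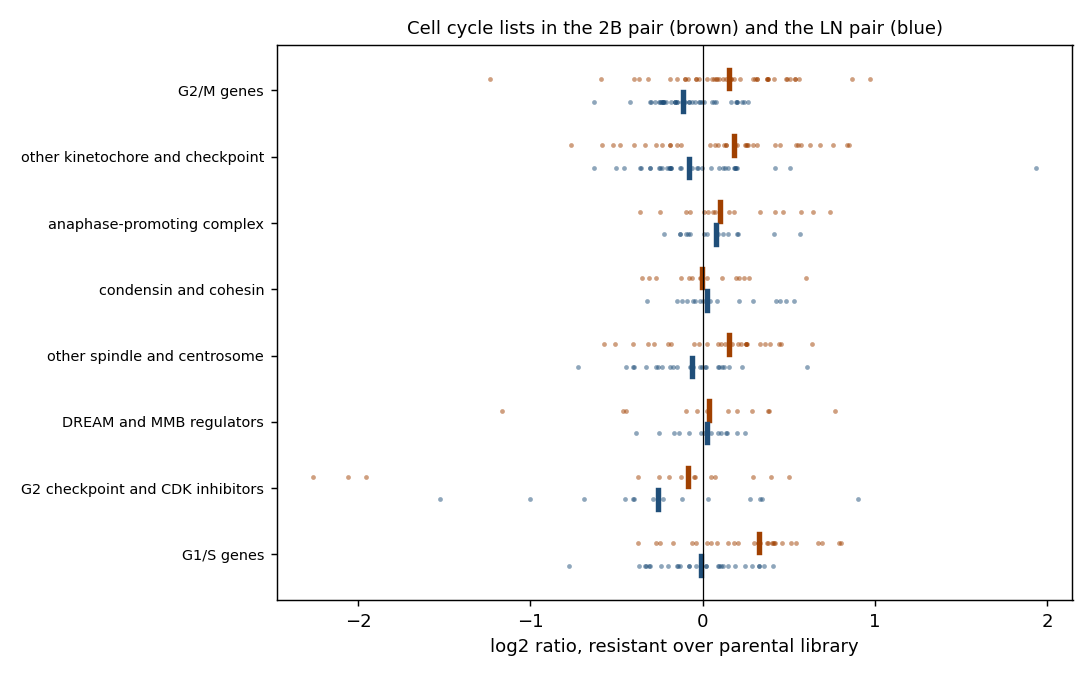
Log2 ratio (horizontal axis) of each measured gene as a point and the median of each list as a bar, for the 42 G2/M genes and 7 other lists, in the 2B pair (brown) and the LN pair (blue). The G1/S list has the highest median in the 2B pair (0.33), and the kinetochore, spindle and G2/M lists lie above 0 in the 2B pair and below it in the LN pair.

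What the 42 genes shared besides their function was examined in their sequences. Of the 25 genes with CHR letters, 16 were higher in the 2B pair (median 0.12), and 9 of the 10 without (median 0.45). Counts for the LN pair were 7 and 2 (medians -0.15 and -0.17). Among all genes measured, the percentages higher were 50.0 (2B) and 49.6 (LN), and the promoter groups were not tested against these. The GC content of the transcript moved with the ratios of the 2B pair. Over the 42 genes the rank correlation of the 2B ratio with GC content was 0.42, against 0.09 over 15010 genes, and with transcript length it was -0.13. Of the 14 genes of lowest GC content (35.3 to 41.7%) 5 were higher in the 2B pair, with a median of -0.09, which was also the median of all 3020 genes of that range. The middle 14 (42.1 to 47.8%) had a median of 0.17 against -0.01, and the upper 14 (48.1 to 59.6%) 0.37 against 0.04, with 12 higher in each. In the LN pair the correlation was 0.14 for the 42 and 0.15 for all, and the 3 medians lay between -0.17 and -0.08. The part of GC content in the 2B result was not tested.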

How the data were processed

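Total RNA of 4 cell lines, 1 library each, was made into stranded mRNA libraries from 100 ng. The authors deposited estimated counts per gene, not scaled between libraries, and 45.7% of the values are not whole (tolerance 0.0005). The submitters' processing notes name STAR, Partek and GRCh38 (hg38), while the annotation and strand setting are not given in the sources used here. Each gene of the table sums to at least 10.0 over the libraries. The design had assumed whole counts, so the estimated counts were rounded.

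Libraries were scaled by TMM factors from edgeR 4.0.16 in R 4.3.3. A pseudocount of 0.5 was added before log2 ratios were taken, and genes whose normalized CPM averaged under 1 in the libraries compared were left out. The 95% intervals of log2 ratios were normal approximations from the counts, and those of shares Wilson intervals. Totals ranged from 19950537 to 26394267 counts, which sets the counting error. With 1 library per line no model was fitted and no replicate could be left out, and the ratio and interval steps were tested on simulated counts. Alternatives were scaling by total counts, DESeq2 1.42.0 size factors and upper quartile factors, a pseudocount of 2, minimum means of 0.1 and 10, unrounded counts, summed counts, and shares without mitochondrial genes or without MKI67 and TOP2A. GENCODE 29 gave transcript length, GC content and overlaps, and RefSeq the promoters.

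The 42 genes, the lists and the rules were chosen with earlier results of these data known. Fuller values are given for the 5 highest and 5 lowest of the 42 in each pair, the 5 with the largest difference in each direction between the pairs, the highest and lowest gene of each list, MYBL2 and CDKN1A. A gene that this rule would name is not reported here. The partner pairs and the other values of the 42 were chosen after values were seen.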

Additional observations from a re-analysis of the deposited data

Results flagged for a closer look

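Of the 42 genes, 15 had a counting interval on one side of 0 in the 2B pair and on the other side in the LN pair, with 1 library per line, and the differences were not tested against replicates. The 2B log2 ratio exceeded the LN log2 ratio by 1.19 for CDC25C, 1.11 for CENPA, 0.774 for KIF20A, 0.769 for KIF11 and 0.721 for CDC25B. The excess was 0.627 for NCAPG, 0.621 for CCNB1, 0.564 for KIF2C, 0.536 for CDC20, 0.488 for BUB1B, 0.485 for MKI67, 0.39 for BUB1, 0.365 for BIRC5 and 0.287 for NUSAP1. CENPF alone of these had the reverse sign, with a difference of -0.82.

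The median of the 42 genes had opposite signs in the pairs (0.152 and -0.117), and the median of the differences gene by gene was 0.226. The same held for the list medians of other kinetochore and checkpoint genes (difference of medians 0.259) and other spindle and centrosome genes (0.214). It held in sign alone for G1/S genes (0.341), whose LN median was -0.01, with 14 of 28 higher (50.0%, against 49.6% of all genes). Condensin and cohesin genes (-0.0298) also differed in sign, with medians within 0.03 of 0 in both pairs. These differences were not tested.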

How the results depend on the processing

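Within a comparison of 2 lines no replicates could be paired, because each line has 1 library. A fit of resistant against parental libraries over both backgrounds, with the background as a block, was not run. The median of the 42 genes kept its sign under every alternative run. It lay between 0.110 and 0.178 (2B pair) and between -0.201 and -0.108 (LN pair) under the scalings, pseudocount, rounding and filters tried, and the median difference between 0.225 and 0.268. The log2 ratio of the summed counts of the 42 genes was 0.174 (2B pair) and -0.0502 (LN pair), the latter nearer to 0 than the median of -0.117. The medians of all genes lay between -0.0423 and 0.0255 (2B pair) and between -0.0884 and 0.0127 (LN pair). Scaling by total counts gave 7 of the 42 higher in the LN pair in place of 11, an LN ratio of -0.0166 for TPX2, LN medians of -0.00557 for the anaphase-promoting complex, -0.0604 for condensin and cohesin and -0.0563 for DREAM and B-MYB genes, and a 2B median of -0.00538 for the last. The 2B median of condensin and cohesin became 0.00249 with DESeq2 size factors and 0.0198 with upper quartile factors. Without mitochondrial genes the summed shares were 0.492% and 0.449% for LNCaP and LN-OlapR, and 0.467% and 0.507% for C4-2B and 2B-OlapR, and without MKI67 and TOP2A 0.385%, 0.352%, 0.391% and 0.425%. Of 420 values of single genes of the 42 under the alternatives, 403 moved by no more than their 95% counting interval. Of the others, 16 moved farther and 1 (TPX2) changed sign from an interval that lay above 0. These 16 and TPX2 were all LN ratios under scaling by total counts, so the small LN ratios depend on that choice. Some ratios whose interval held 0 changed sign as well. With total counts they were TOP2A, KIF4A and ECT2 in the LN pair and CCNA2 in the 2B pair. PLK1 in the LN pair did so with DESeq2 size factors and upper quartile factors, and FOXM1 in the 2B pair with upper quartile factors.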
